A study of Mus musculus with 12 samples.

Results

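The 10 genes described here encode AP-1 and EGR transcription factors: the 4 FOS family genes Fos, Fosb, Fosl1 and Fosl2, the 3 JUN family genes Jun, Junb and Jund, and the 3 EGR genes Egr1, Egr2 and Egr3. They were chosen by symbol, matched to Ensembl gene IDs, and are 10 of the 54232 genes in the files and 10 of the 16767 that passed the filter on low counts. RNA was sequenced from MMTV-NIC mouse breast cancer cells, a tumour line in which the mouse mammary tumour virus promoter drives an activated Neu (ErbB2) and Cre recombinase in mammary epithelium. The 4 groups of 3 libraries were AXL KO cells in hypoxia (1% oxygen), AXL WT cells in hypoxia, AXL KO cells in normoxia (21% oxygen) and AXL WT cells in normoxia. AXL, a TAM receptor tyrosine kinase, binds the ligand GAS6. All groups carry the NIC transgene, and the means of the knockout, its number of clones and the hours in hypoxia are not given in the sources used here.

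FOS proteins cannot pair with themselves and bind DNA as dimers with a JUN protein, while JUN proteins also pair with each other. These AP-1 dimers, and the zinc-finger EGR proteins, sit at the end of the growth factor and stress kinase cascades. Fos, Fosb, Jun, Junb and the EGR genes are immediate early genes: a stimulus switches them on within minutes, without new protein synthesis. For most of them this runs through serum response factor (SRF), its ETS partners and CREB. Fosl1 (FRA-1) and Fosl2 (FRA-2) follow later and, in many epithelial tumours, Fosl1 is tied to invasive growth.

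The start-site regions of 3 FOS family genes and of Egr2 are shown because these genes moved in hypoxia and their windows held matches to motifs of the factors named above. They come from RefSeq (GRCm38.p6), run 5′ to 3′ on the gene's strand from 250 bases before the start to 50 after it, and carry the matches in capitals. In Fos (chr12:85473640-85473939, plus strand) the capitals mark the cAMP response element core TGACG, which CREB and its relatives bind. In Fosb (chr7:19309996-19310295, minus strand) they mark the same core and then the EGR site GCGNGGGCG. In Fosl2 (chr5:32136222-32136521, plus strand) they mark the EGR site. In Egr2 (chr10:67537619-67537918, plus strand, window 3 of its 5) they mark the core, then a CArG box, the site of SRF, and then the core on the other strand.
Fos: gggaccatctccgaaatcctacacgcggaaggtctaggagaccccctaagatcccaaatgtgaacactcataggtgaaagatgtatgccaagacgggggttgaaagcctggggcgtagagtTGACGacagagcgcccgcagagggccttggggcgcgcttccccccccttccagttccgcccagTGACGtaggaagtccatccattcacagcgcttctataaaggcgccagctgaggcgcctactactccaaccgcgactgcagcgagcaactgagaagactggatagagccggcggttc
Fosb: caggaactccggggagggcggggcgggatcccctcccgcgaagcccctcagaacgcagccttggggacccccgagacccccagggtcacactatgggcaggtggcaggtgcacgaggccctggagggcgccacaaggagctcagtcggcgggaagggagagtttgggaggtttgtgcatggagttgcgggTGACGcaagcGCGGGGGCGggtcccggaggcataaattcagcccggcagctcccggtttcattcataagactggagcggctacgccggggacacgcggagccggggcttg
Fosl2: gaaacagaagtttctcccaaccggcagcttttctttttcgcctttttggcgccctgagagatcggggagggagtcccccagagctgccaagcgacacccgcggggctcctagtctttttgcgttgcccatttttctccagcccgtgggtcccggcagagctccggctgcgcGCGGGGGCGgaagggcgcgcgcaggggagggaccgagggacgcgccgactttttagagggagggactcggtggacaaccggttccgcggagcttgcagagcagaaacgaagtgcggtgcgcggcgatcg
Egr2: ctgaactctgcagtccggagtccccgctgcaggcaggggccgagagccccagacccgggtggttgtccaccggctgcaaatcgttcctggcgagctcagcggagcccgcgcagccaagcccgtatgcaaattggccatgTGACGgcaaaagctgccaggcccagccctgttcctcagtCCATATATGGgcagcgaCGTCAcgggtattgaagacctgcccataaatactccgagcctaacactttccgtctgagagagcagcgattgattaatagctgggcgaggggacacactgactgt

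Both strands were searched, and positions count from the RefSeq start site. The core stood at -129 and -66 in Fos, at -60 in Fosb and at -111 and -55 in the Egr2 window shown. The EGR site stood at -50 in Fosb and -79 in Fosl2, and the CArG box of the Egr2 window shown at -72. Window 2 of Egr2 held another CArG box, CCTTTTTTGG, at -72 from its own start site. Windows 4 and 5 held the box of the window shown, at -73 and -133. Sites more than 250 bases before a start were not searched. Of 32851 such windows of all mouse genes, 20.8% held the core, 5.55% the EGR site and 1.63% a CArG box. The hypoxia response element core ACGTG, found in 19.6% of all windows, matched at -83 and -74 in Jund and at -27 and -26 in window 1 of Egr2, where the matches on the 2 strands overlap. Junb held the cAMP core at -106. The AP-1 site TGANTCA, found in 7.81% of all windows, and the full element TGACGTCA, found in 1.79% (it also holds the core), matched in no window of the 7 matched members, and Jun held none of the searched motifs. A match is a string of letters, not a bound site. Promoter windows of Fosl1, Egr1 and Egr3 were not used here.

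Library totals ran from 45297267 to 58775422 counts in genes. The sources used here do not say whether replicate libraries are separate cultures, and p-values then reflect only how these libraries spread, which may be technical. The genotype tag goes against the title in 6 samples, the titles were used, and Axl followed them. Axl itself had 78 to 105 reads in the AXL KO hypoxia libraries, against 19395 to 28495 in those of AXL WT hypoxia, and 164 to 200 in AXL KO normoxia, against 47960 to 57291 in AXL WT normoxia. The 3 AXL WT hypoxia libraries stood apart from each other, with a biological coefficient of variation of 0.402, against 0.0565 to 0.0895 in the other groups. Mitochondrial ribosomal RNA was 0.0924%, 0.519% and 0.284% of their counts, against 0.0874% to 0.130% elsewhere. Their results are therefore also given without replicates 2 and 3, and for some genes without replicate 1. By chi-square per degree of freedom replicate 1 lay furthest from its fellows (350 from replicate 2 and 199 from replicate 3, against 104 between those 2). The fit without replicates 2 and 3 leaves 1 library in the group and takes its spread from the other groups. Its calls and counts therefore do not show how AXL WT hypoxia varies. The epithelial keratins Krt8 and Krt18 were high in every group (523 to 1053 CPM as group means), Epcam and Cdh1 were low (4.47 to 64.1 CPM) and Krt19 had no count in either normoxia group. The AXL WT hypoxia libraries were uneven, with summed epithelial markers of 923 to 2242 CPM. Erbb2, listed as the tumour transgene marker, was 131, 360 and 2407 CPM in them, from lowest to highest. It was 1116 to 1342 CPM in AXL WT normoxia, 607 to 694 in AXL KO hypoxia and 500 to 651 in AXL KO normoxia. Markers of other cell types were at or near 0 except for Cd68, Pdgfra, Pdgfrb, Col1a1, Dcn, Kdr and Fabp4. The summed leukocyte markers, nearly all Cd68, were 49.0 to 85.2 CPM in AXL KO libraries, against 6.46 to 12.6 CPM in AXL WT libraries, while Ptprc, Cd3e, Itgam and Adgre1 averaged under 0.2 CPM in every group. The summed fibroblast markers were 186 to 201 CPM in AXL KO normoxia, mostly Pdgfrb, and 58.9 to 96.3 CPM in the other groups, with Lum and Thy1 near 0. The part of these markers in the results was not tested. In such bulk samples fewer cells of a type and less RNA per cell cannot be told apart.

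**Figure D1:**
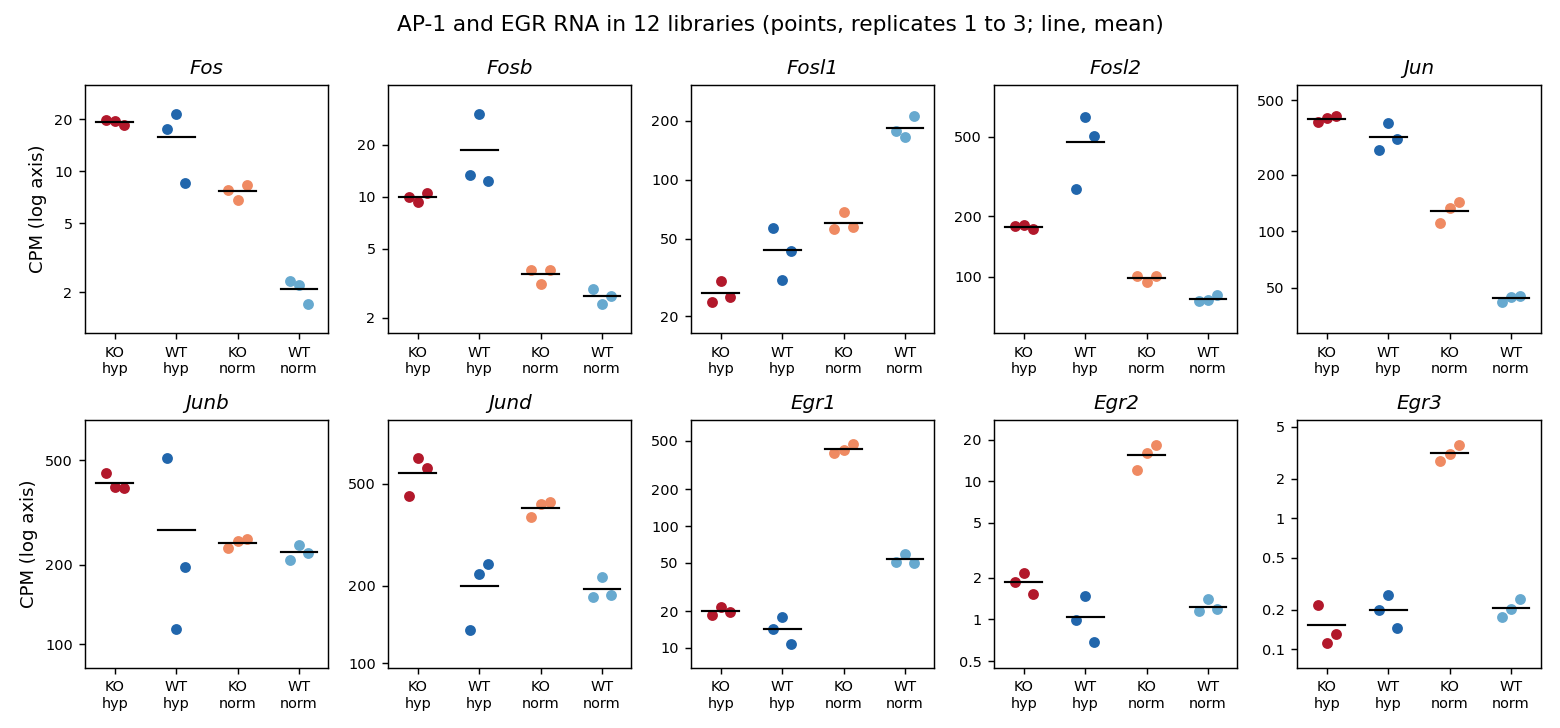
CPM of the 10 genes (log axis) in the 12 libraries, with 1 point per library in replicate order from left to right and a line at each group's mean, for AXL KO and WT in hypoxia (hyp) and AXL KO and WT in normoxia (norm). Egr1 is highest in the AXL KO normoxia libraries (396 to 475 CPM), Fosl1 in AXL WT normoxia (165 to 211 CPM), and the AXL WT hypoxia libraries spread most for Junb (114 to 508 CPM).

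The JUN genes gave most of the AP-1 RNA in all groups, and the FOS genes changed places between oxygen levels. Levels between genes are compared in FPKM, which is CPM per kilobase of exon. The 3 JUN genes together had 634 ± 48.3 FPKM in AXL KO hypoxia, 338 ± 43.7 FPKM in AXL WT hypoxia, 388 ± 26.7 FPKM in AXL KO normoxia and 227 ± 18.3 FPKM in AXL WT normoxia (SD, n = 3). The 4 FOS genes together had 43.5 ± 2.34, 83.7 ± 12.8, 49.4 ± 3.21 and 117 ± 14.3 FPKM in the same order of groups. The 3 EGR genes had 5.05 ± 0.392 FPKM in AXL KO hypoxia, 3.55 ± 0.932 in AXL WT hypoxia, 101 ± 10.1 in AXL KO normoxia and 12.3 ± 1.23 in AXL WT normoxia. Summed EGR RNA in AXL KO normoxia therefore stood above summed FOS RNA, and below it in the other 3 groups.

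Within the FOS family, Fosl1 made up 35.4 ± 2.86% of the FPKM in AXL KO hypoxia and 31.9 ± 14.1% in AXL WT hypoxia. In normoxia its share was 71.5 ± 3.30% in AXL KO and 92.0 ± 0.829% in AXL WT (SD, n = 3 each). Fosl2, the nearest relative of Fosl1, held 42.1 ± 1.64% in AXL KO hypoxia and 56.6 ± 14.7% in AXL WT hypoxia, against 20.7 ± 2.14% in AXL KO normoxia and 6.88 ± 0.620% in AXL WT normoxia. The most abundant FOS gene was thus Fosl2 in hypoxia and Fosl1 in normoxia in all libraries but AXL WT hypoxia replicate 1, where Fosl1 had 46.7% and Fosl2 39.8%. Fos itself held 18.8 ± 0.947% in AXL KO hypoxia, 8.07 ± 3.25% in AXL WT hypoxia, 6.63 ± 1.00% in AXL KO normoxia and 0.769 ± 0.194% in AXL WT normoxia. Fosb stayed under 5% in each library.

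Within the JUN family, Jund held the largest share in AXL KO hypoxia (51.9 ± 5.07%), AXL KO normoxia (62.3 ± 0.217%) and AXL WT normoxia (51.1 ± 1.1%). In AXL WT hypoxia its shares were 20.9%, 44.3% and 44.4%, beside 57.1%, 16.5% and 26.0% for Junb. Jun held 19.8 ± 0.984% in AXL KO hypoxia and 30.2 ± 8.64% in AXL WT hypoxia, against 10.4 ± 0.684% in AXL KO normoxia and 6.10 ± 0.389% in AXL WT normoxia. The EGR family was mostly Egr1, from 88.5 ± 1.4% in AXL KO hypoxia to 96.6 ± 0.139% in AXL WT normoxia.

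**Figure D2:**
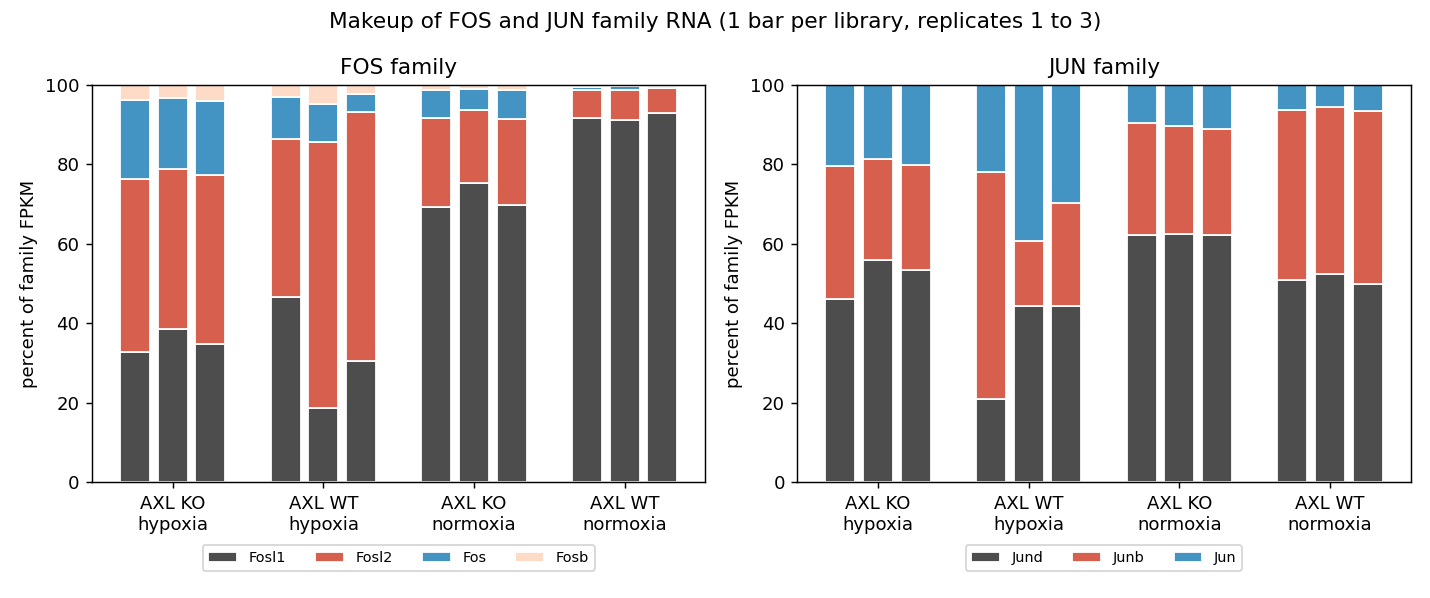
Percent of family FPKM held by each member (vertical axis, 0 to 100), with 1 stacked bar per library in replicate order, for the FOS family (left) and the JUN family (right) in the 4 groups. Fosl1 fills 18.6% to 46.7% of the FOS bars in AXL WT hypoxia, where Fosl2 fills 39.8% to 67.1%, and 91.3% to 92.9% in AXL WT normoxia.

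The order of the single genes by FPKM was led by Jund in every group. In AXL KO hypoxia it ran Jund, Junb, Jun, Fosl2, Fosl1, Fos, Egr1, Fosb, Egr2 and Egr3, and no neighbours overlapped. In AXL WT hypoxia the order was the same, but Jund, Junb and Jun overlapped as neighbours, as did Fosl2 with Fosl1, Fos with Egr1 and Egr1 with Fosb. In AXL KO normoxia Egr1 (95.7 ± 9.18 FPKM) came after Jund and Junb and overlapped Junb (106 ± 4.35 FPKM), followed by Jun and Fosl1, which overlapped, Fosl2, then Egr2 and Fos, which overlapped, Egr3 and Fosb. In AXL WT normoxia Fosl1 (108 ± 14.2 FPKM) overlapped both Jund (116 ± 11.5 FPKM) and Junb (97.0 ± 6.68 FPKM), and Jun, Egr1, Fosl2, Fos, Fosb, Egr2 and Egr3 followed. There Jun overlapped Egr1 and Fosb overlapped Egr2.

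The comparison of AXL KO with AXL WT in hypoxia is the one the series is named for, and the other contrasts show what was already different in normoxia and how each genotype changed with oxygen. In normoxia AXL KO cells had more Egr1, Egr2, Egr3, Fos, Jun and Jund and less Fosl1. In hypoxia the EGR differences were small, and the AXL KO cells had more Jund and less Fosl2. Hypoxia itself went with more Fos, Fosb, Fosl2 and Jun and less Fosl1 and Egr1 in both genotypes, and with less Egr2 and Egr3 in AXL KO cells. A gene was called at an adjusted p under 0.05, and every adjusted p here is from edgeR's quasi-likelihood test with Benjamini-Hochberg adjustment over all genes tested, unless another tool is named. Each log2 fold change is followed by its standard error after ±.

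For AXL KO against WT in hypoxia, 4 of the 10 genes were called higher and 3 lower, where 63.0% of all genes tested were called (29.9% higher and 33.0% lower). The libraries did not overlap for 7 of the 10, and for 62.6% of all genes. For AXL KO against WT in normoxia, 6 were higher and 1 lower, against a background of 59.7% called (29.7% higher and 30.0% lower), and the groups did not overlap for 9, nor for 79.7% of all genes. For hypoxia against normoxia in AXL KO, 4 were higher and 4 lower (58.0% of all genes called, 27.3% higher and 30.6% lower), and the groups did not overlap for any of the 10, nor for 76.0% of all genes. For hypoxia in AXL WT 4 were higher and 2 lower (59.8% of all genes called, 29.2% higher and 30.7% lower), and the groups did not overlap for 6, nor for 61.4% of all genes. The called shares of the 10 genes thus lay close to or moderately above these backgrounds in all 4 contrasts, and the contrasts share libraries, so their counts are not independent. For the interaction, which is the hypoxia response of AXL KO minus that of AXL WT, 1 was higher and 7 lower, where 28.8% of all genes were called (13.5% higher and 15.3% lower). The median log2 fold changes of the 10 genes were 0.30 in hypoxia and 1.31 in normoxia for AXL KO against WT, 0.60 in AXL KO and 0.17 in AXL WT for hypoxia, and -1.46 for the interaction, while those of all genes lay between -0.04 and -0.02.

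The count for AXL KO against WT in hypoxia was the least stable. It was 3 in all without AXL KO hypoxia replicate 2, 4 without AXL WT hypoxia replicate 3 and 4 by voom with a weight per group. With library size alone as the scaling 2 were higher and 3 lower. Of all genes, 10557 were called with all libraries by edgeR, against 9746, 10188, 8209 and 10651 in the same order of settings.

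**Figure D3:**
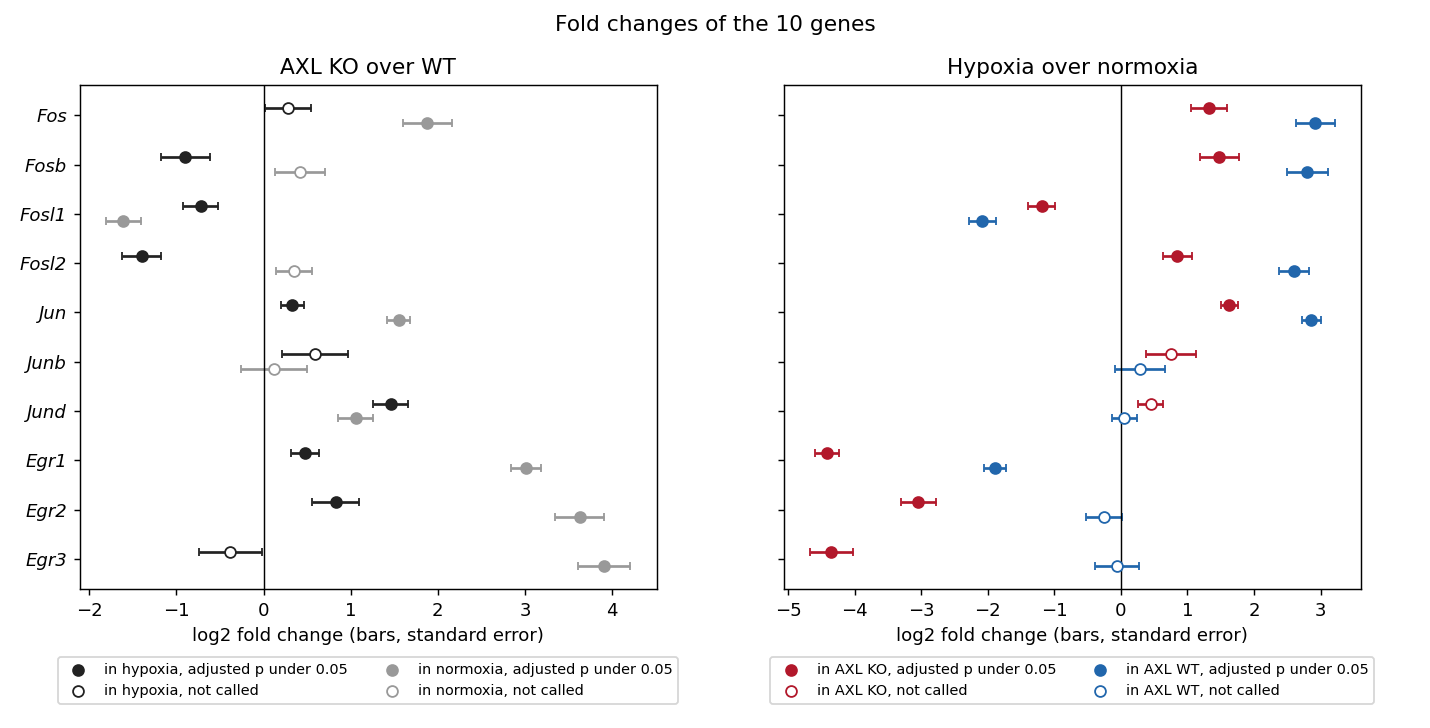
Log2 fold changes of the 10 genes (horizontal axis) with standard errors, for AXL KO over WT in hypoxia and normoxia (left) and for hypoxia over normoxia in AXL KO and AXL WT (right); filled points have an adjusted p under 0.05. The EGR genes lie at 3.01 to 3.91 for AXL KO over WT in normoxia and at -4.42 to -3.04 for hypoxia in AXL KO.

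Fos (ENSMUSG00000021250, GRCm38 chromosome 12, 85473890 to 85477273), the founding AP-1 gene, was higher in hypoxia in both genotypes and higher in AXL KO in normoxia. It had 19.7, 19.5 and 18.5 CPM in AXL KO hypoxia and 17.5, 21.4 and 8.54 CPM in AXL WT hypoxia. In normoxia it had 7.75, 6.85 and 8.36 CPM in AXL KO and 2.31, 2.21 and 1.71 CPM in AXL WT. Every hypoxia library lay above every normoxia library, the hypoxia groups overlapped, and the normoxia groups did not. Hypoxia raised Fos 2.51-fold in AXL KO (log2 fold change 1.33 ± 0.27, adjusted p = 0.00119) and 7.59-fold in AXL WT (2.92 ± 0.29, adjusted p = 5.75e-06, or 3.09 without replicates 2 and 3). The responses differed by -1.60 ± 0.38 (adjusted p = 0.00906). In normoxia AXL KO stood 3.68-fold above AXL WT (1.88 ± 0.28, adjusted p = 0.000107), and in hypoxia the difference was 0.28 ± 0.26 (adjusted p = 0.361).

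Fosb (ENSMUSG00000003545, chromosome 7, 19302696 to 19310051), which has a short splice form that lacks the activation domain, was also higher in hypoxia in both genotypes, at a lower level per length. Its CPM were 9.99, 9.36 and 10.5 in AXL KO hypoxia and 13.4, 30.2 and 12.4 in AXL WT hypoxia, while in normoxia they were 3.77, 3.12 and 3.78 in AXL KO and 2.94, 2.40 and 2.65 in AXL WT. The 4 groups did not overlap, although AXL WT hypoxia replicate 2 lay far above its fellows. Fosb rose in hypoxia 2.80-fold in AXL KO (1.48 ± 0.29, adjusted p = 0.00107) and 6.98-fold in AXL WT (2.80 ± 0.31, adjusted p = 1.29e-05, or 2.34 without replicates 2 and 3). In hypoxia it was lower in AXL KO (-0.90 ± 0.28, adjusted p = 0.0155, or -0.43 without replicates 2 and 3), and that call ended without AXL KO hypoxia replicate 2 (adjusted p = 0.0524). In normoxia the difference between genotypes was 0.42 ± 0.29 (adjusted p = 0.243). The interaction of -1.32 ± 0.41 (adjusted p = 0.0312) lost its call in 9 of 21 alternatives, and was -0.85 without AXL WT hypoxia replicates 2 and 3. Without replicate 1 of that group the values were 2.99 for hypoxia in AXL WT, -1.08 between genotypes in hypoxia and -1.50 for the interaction.

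Fosl2 (ENSMUSG00000029135, chromosome 5, 32135801 to 32157842), which encodes FRA-2, had 179, 181 and 173 CPM in AXL KO hypoxia and 274, 628 and 506 CPM in AXL WT hypoxia. In normoxia it had 101, 93.9 and 101 CPM in AXL KO and 75.4, 76.6 and 80.6 CPM in AXL WT. No groups overlapped, and the AXL WT hypoxia libraries were the highest and the most uneven. Hypoxia raised it 1.80-fold in AXL KO (0.85 ± 0.22, adjusted p = 0.00543) and 6.06-fold in AXL WT (2.60 ± 0.23, adjusted p = 2.47e-06). It was 2.65-fold lower in AXL KO than in AXL WT in hypoxia (-1.40 ± 0.22, adjusted p = 0.000165), and this call held under each alternative run. In normoxia the genotypes differed by 0.35 ± 0.21 (adjusted p = 0.182), a difference that was called when the 6 normoxia libraries were fitted alone (0.34, adjusted p = 0.000176). The responses differed by -1.75 ± 0.31 (adjusted p = 0.00157). Without AXL WT hypoxia replicates 2 and 3 the values were nearer to 0 for hypoxia in AXL WT (1.84), AXL KO against WT in hypoxia (-0.63) and the interaction (-0.99).

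Fosl1 (ENSMUSG00000024912, chromosome 19, 5447703 to 5455945), which encodes FRA-1, went the other way. It had 23.8, 30.4 and 25.0 CPM in AXL KO hypoxia and 56.8, 30.7 and 43.1 CPM in AXL WT hypoxia, against 55.7, 68.1 and 57.3 CPM in AXL KO normoxia and 177, 165 and 211 CPM in AXL WT normoxia. The AXL WT normoxia libraries stood far above all others, the genotypes were only just apart in hypoxia (30.4 against 30.7 CPM at the nearest), and AXL WT hypoxia overlapped AXL KO normoxia. Fosl1 was 3.05-fold lower in AXL KO in normoxia (-1.61 ± 0.20, adjusted p = 2.44e-05) and 1.65-fold lower in hypoxia (-0.72 ± 0.20, adjusted p = 0.00710, or -1.11 without AXL WT hypoxia replicates 2 and 3), a call that ended by voom with a weight per group (adjusted p = 0.0573). It fell in hypoxia in AXL KO (-1.19 ± 0.20, adjusted p = 0.000328) and in AXL WT (-2.08 ± 0.20, adjusted p = 5.33e-06, or -1.69 without replicates 2 and 3). The interaction of 0.89 ± 0.28 (adjusted p = 0.0318) lost its call in 10 of 21 alternatives, and was 0.50 without AXL WT hypoxia replicates 2 and 3. Without replicate 1 of that group the values were -0.47 between genotypes in hypoxia, -2.32 for hypoxia in AXL WT and 1.13 for the interaction.

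Among the JUN genes, Jun rose in hypoxia in both genotypes, Jund differed by genotype, and Junb was called in no contrast. Jun (ENSMUSG00000052684, chromosome 4, 95049034 to 95052222), the main target of the JNK kinases, had 381, 403 and 414 CPM in AXL KO hypoxia and 270, 376 and 309 CPM in AXL WT hypoxia. It had 111, 133 and 144 CPM in AXL KO normoxia and 41.9, 44.7 and 45.4 CPM in AXL WT normoxia. The 4 groups formed 4 separate steps. Jun rose in hypoxia 3.09-fold in AXL KO (1.63 ± 0.13, adjusted p = 1.65e-06) and 7.24-fold in AXL WT (2.86 ± 0.14, adjusted p = 4.54e-08, or 2.63 without replicates 2 and 3). The responses differed by -1.23 ± 0.18 (adjusted p = 0.000521, or -1.0 without replicates 2 and 3). In normoxia AXL KO cells had 2.94-fold more Jun (1.55 ± 0.13, adjusted p = 9.23e-07). The small excess in hypoxia (0.33 ± 0.13, adjusted p = 0.0404, or 0.56 without replicates 2 and 3) lost its call in 13 of 22 alternatives.

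Jund (ENSMUSG00000071076, chromosome 8, 70698949 to 70700616), an intronless gene that most cells express at rest, had 448, 631 and 575 CPM in AXL KO hypoxia and 135, 222 and 243 CPM in AXL WT hypoxia. In normoxia it had 371, 416 and 423 CPM in AXL KO and 181, 216 and 185 CPM in AXL WT. The AXL KO libraries lay above the AXL WT libraries at each oxygen level, while the AXL WT groups overlapped. AXL KO cells had 2.76-fold more Jund in hypoxia (1.46 ± 0.20, adjusted p = 5.57e-05, or 2.03 without AXL WT hypoxia replicates 2 and 3) and 2.08-fold more in normoxia (1.06 ± 0.20, adjusted p = 0.000556). Both calls held under each alternative run. The hypoxia response was 0.45 ± 0.19 in AXL KO (adjusted p = 0.0642) and 0.05 ± 0.19 in AXL WT (adjusted p = 0.853), and the interaction was 0.40 ± 0.27 (adjusted p = 0.295). Without AXL WT hypoxia replicates 2 and 3 the response of AXL WT was -0.51 and the interaction 0.96. Without replicate 1 they were 0.27 (adjusted p = 0.0911) and 0.19 (adjusted p = 0.402).

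Junb (ENSMUSG00000052837, chromosome 8, 84974484 to 84978718), a weaker activator that can oppose Jun, had 445, 395 and 390 CPM in AXL KO hypoxia and 508, 114 and 196 CPM in AXL WT hypoxia. In normoxia it had 232, 247 and 250 CPM in AXL KO and 209, 239 and 222 CPM in AXL WT. The AXL WT hypoxia libraries lay on both sides of every other group. No contrast was called, with log2 fold changes for AXL KO against WT of 0.59 ± 0.38 in hypoxia (adjusted p = 0.195) and 0.12 ± 0.38 in normoxia (adjusted p = 0.798). For hypoxia they were 0.75 ± 0.38 in AXL KO (adjusted p = 0.11) and 0.29 ± 0.38 in AXL WT (adjusted p = 0.535), with an interaction of 0.47 ± 0.54 (adjusted p = 0.557). The value for AXL KO against WT in hypoxia depended on which AXL WT hypoxia libraries were used. It was -0.31 without AXL WT hypoxia replicates 2 and 3 and 1.41 (adjusted p = 8.61e-06) without replicate 1. The rise in AXL KO was called when the 6 AXL KO libraries were fitted alone (0.75, adjusted p = 1.41e-06), as was that of Jund (0.45, adjusted p = 0.00298).

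Jun, Junb and Jund overlap Junos, Prdx2 and Gm11175 on the other strand, and the authors counted by strand.

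Of the 10 genes, the EGR genes had the largest fold changes between genotypes in normoxia, for hypoxia in AXL KO and for the interaction. Egr1 (ENSMUSG00000038418, chromosome 18, 34859823 to 34864984), the most abundant of them, had 18.7, 21.7 and 19.7 CPM in AXL KO hypoxia and 14.3, 18.0 and 10.8 CPM in AXL WT hypoxia. In normoxia it had 396, 417 and 475 CPM in AXL KO and 50.5, 59.4 and 49.8 CPM in AXL WT. The AXL KO normoxia libraries stood far above all others, and both hypoxia groups were below both normoxia groups. AXL KO cells had 8.06-fold more Egr1 in normoxia (3.01 ± 0.17, adjusted p = 3.65e-08). In hypoxia Egr1 fell 21.4-fold in AXL KO (-4.42 ± 0.18, adjusted p = 2.84e-08) and 3.72-fold in AXL WT (-1.89 ± 0.16, adjusted p = 2.39e-06, and the same without replicates 2 and 3). The responses differed by -2.53 ± 0.23 (adjusted p = 2.27e-05). The genotypes then differed by 0.48 ± 0.16 (adjusted p = 0.0204, likewise 0.48 without replicates 2 and 3), a call that ended without AXL KO hypoxia replicate 2 (adjusted p = 0.0673), without replicate 3 of AXL WT hypoxia (adjusted p = 0.0650) and in 3 further alternatives of 22.

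Egr2 (ENSMUSG00000037868, chromosome 10, 67535475 to 67542188), known for its part in Schwann cell myelination, had 1.87, 2.17 and 1.54 CPM in AXL KO hypoxia and 0.994, 1.48 and 0.685 CPM in AXL WT hypoxia. It had 12.1, 15.9 and 18.2 CPM in AXL KO normoxia and 1.15, 1.4 and 1.19 CPM in AXL WT normoxia. The AXL KO normoxia libraries were high, and all others lay near 1 or 2 CPM, with the AXL WT groups overlapping. In normoxia AXL KO was 12.3-fold higher (3.63 ± 0.28, adjusted p = 4.55e-07). Hypoxia lowered Egr2 8.25-fold in AXL KO (-3.04 ± 0.27, adjusted p = 3.49e-06), and its change in AXL WT was -0.25 ± 0.27 (adjusted p = 0.463). The interaction was -2.80 ± 0.38 (adjusted p = 0.000301, or -2.73 without AXL WT hypoxia replicates 2 and 3). The difference in hypoxia (0.83 ± 0.27, adjusted p = 0.0198) was lost without AXL KO hypoxia replicate 2 (adjusted p = 0.0713), without replicate 3 of AXL WT hypoxia (adjusted p = 0.0673) and in 2 further alternatives of 22.

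Egr3 (ENSMUSG00000033730, chromosome 14, 70077203 to 70082614), which muscle spindles need to form, gathered 9, 5 and 6 reads in AXL KO hypoxia and 9, 11 and 7 reads in AXL WT hypoxia. In normoxia it gathered 152, 181 and 211 reads in AXL KO and 10, 11 and 14 reads in AXL WT. The AXL KO normoxia libraries stood apart at 2.72, 3.12 and 3.66 CPM, and the other groups overlapped one another. Egr3 was 15-fold higher in AXL KO in normoxia (3.91 ± 0.30, adjusted p = 4.07e-07) and fell 20.4-fold in hypoxia in AXL KO (-4.35 ± 0.32, adjusted p = 8.60e-07). In AXL WT the change was -0.06 ± 0.33 (adjusted p = 0.887), and the interaction was -4.29 ± 0.46 (adjusted p = 6.87e-05, or -4.29 without replicates 2 and 3). The difference between genotypes in hypoxia was -0.38 ± 0.36 (adjusted p = 0.431), at counts too low to show a small difference.

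The 2 protein-coding genes whose profile over the 12 libraries lay closest to each member were found among 9999 genes, by the root mean square difference of log2 CPM centred on each gene's mean. For the hypoxia-raised genes these were Hk1 (0.16) and Ak4 (0.17) for Jun, Ppm1k (0.23) and Pgam1 (0.24) for Fosb, Hnrnph3 (0.21) and Nuak1 (0.22) for Fosl2, and Rbpms (0.31) and P4hb (0.33) for Fos. Hk1 is a hexokinase, Ak4 an adenylate kinase, Pgam1 a glycolytic mutase and P4hb a disulfide isomerase. Fosl1 lay closest to Pkmyt1 (0.19), a kinase that restrains mitotic entry, and to Zfp961 (0.22). Jund lay closest to Sppl2a (0.17) and Ehbp1 (0.18), and Junb to Vps39 (0.17) and Zfand2b (0.19). For the EGR genes, whose log2 CPM spread more over the libraries (SD 1.63 to 2.01, against 0.60 to 1.33 for the AP-1 genes), the differences were 0.43 and 0.48 for Egr1 (Tnip3 and Gpd1), 0.44 and 0.46 for Egr2 (Angpt1 and Adhfe1) and 0.45 and 0.67 for Egr3 (Pdgfrb and Carns1). Pdgfrb, a growth factor receptor, averaged 9.27 CPM in AXL KO hypoxia, 13.9 in AXL WT hypoxia, 122 in AXL KO normoxia and 15.6 in AXL WT normoxia, and it is also 1 of the fibroblast markers above.

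Of all genes, 63.0% were called between genotypes in hypoxia (29.9% higher and 33.0% lower) and 59.7% in normoxia (29.7% and 30.0%). For hypoxia against normoxia 58.0% were called in AXL KO and 59.8% in AXL WT, and for the interaction 28.8%. The list counts from here on stand beside these shares, and no list was tested against them. Of the kinases upstream, 17 MAP kinase cascade genes were tested. In AXL KO against WT, 3 were higher and 4 lower in hypoxia (median 0.12), and 5 higher and 2 lower in normoxia (median 0.20). Both counts were smaller shares than among all genes. Mapk3, which encodes ERK1, was higher in AXL KO in hypoxia (525 ± 8.61 against 145 ± 90.8 CPM, 1.86 ± 0.32, adjusted p = 0.000327, or 1.07 without AXL WT hypoxia replicates 2 and 3) and in normoxia (278 ± 20.7 against 113 ± 12 CPM, 1.3 ± 0.31, adjusted p = 0.00353). For hypoxia 7 were higher and 5 lower in AXL KO, and 5 higher and 6 lower in AXL WT. Mapk7, which encodes ERK5, rose in AXL KO (1.92 ± 0.15, adjusted p = 1.44e-06) and AXL WT (2.03 ± 0.15, adjusted p = 7.46e-07), as did Map2k7, which activates the JNK kinases (1.41 ± 0.11 and 1.35 ± 0.11, adjusted p = 1.08e-06 and 1.03e-06). Map2k2, an ERK activator, fell in both (-1.39 ± 0.12 and -1.09 ± 0.12, adjusted p = 3.68e-06 and 1.78e-05). Its relative Map2k1 differed in response by -0.80 ± 0.11 (adjusted p = 0.000416), and 1 gene was higher and 2 lower for the interaction (3 and 3 without AXL WT hypoxia replicate 1, and 2 and 6 without replicates 2 and 3). With library size alone as the scaling these counts became 2 higher and 4 lower between genotypes in hypoxia, 1 and 7 in normoxia, and 5 and 6 in AXL KO and 4 and 7 in AXL WT for hypoxia.

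The list of SRF and its partners had 8 genes tested, among them Creb1 and Crem of the CREB family, and 2 were higher and 4 lower in AXL KO hypoxia against AXL WT hypoxia. Crem was 1 of the lower genes (-2.69 ± 0.52, adjusted p = 0.000751). It was at -0.64 without AXL WT hypoxia replicates 2 and 3 and at -3.15 without replicate 1. The ETS partner Elk4 (-1.33 ± 0.18, adjusted p = 5.00e-05) and the actin-sensing coactivator Mrtfa (-0.69 ± 0.10, adjusted p = 0.000125) were lower, and Mrtfb was higher (0.64 ± 0.13, adjusted p = 0.000898). In normoxia 1 was higher and 1 lower, a smaller share than among all genes, with Srf itself at -0.26 ± 0.12 (adjusted p = 0.0884). Mrtfa rose in hypoxia in AXL KO (0.67 ± 0.10, adjusted p = 0.000188) and AXL WT (1.08 ± 0.10, adjusted p = 5.14e-06). Srf fell in hypoxia in AXL KO (-0.53 ± 0.12, adjusted p = 0.00297). Counts for hypoxia were 2 higher and 3 lower in AXL KO and 4 higher and 1 lower in AXL WT, with 1 higher and 2 lower for the interaction (2 and 4 without AXL WT hypoxia replicate 1, and 2 and 3 without replicates 2 and 3). With library size alone they were 1 higher and 5 lower between genotypes in hypoxia and 0 and 4 in normoxia, and 1 and 3 in AXL KO and 3 and 3 in AXL WT for hypoxia.

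AP-1 partners and related bZIP factors, which share the leucine zipper through which AP-1 dimers form, went both ways. Of 16 tested, 3 were higher and 6 lower in AXL KO than in AXL WT in hypoxia, and 5 higher and 1 lower in normoxia, with medians of -0.41 and 0.20. For hypoxia 4 were higher and 5 lower in AXL KO, and 7 higher and 4 lower in AXL WT. Atf3, a stress-induced repressor, rose in hypoxia in AXL WT (56.0 ± 13.7 against 11.3 ± 0.925 CPM, 2.30 ± 0.27, adjusted p = 2.07e-05) and had -0.52 ± 0.26 in AXL KO (adjusted p = 0.101). The responses differed by -2.83 ± 0.37 (adjusted p = 0.000235, or -2.94 without AXL WT hypoxia replicates 2 and 3). The small MAF factors Maff (470 ± 51.9 against 36.1 ± 5.07 CPM in AXL KO, 3.70 ± 0.25, adjusted p = 5.91e-07) and Mafk (1.67 ± 0.20, adjusted p = 3.46e-05) rose in hypoxia, and did so in AXL WT as well (3.23 ± 0.25 and 1.71 ± 0.20, adjusted p = 9.51e-07 and 2.55e-05). Jdp2, a repressor of AP-1, fell in AXL KO (-2.20 ± 0.18, adjusted p = 1.79e-06) and AXL WT (-1.38 ± 0.17, adjusted p = 3.51e-05). The interaction called 0 higher and 7 lower of the 16 by edgeR (3 and 8 at an unadjusted p under 0.05), and 1 higher and 5 lower by voom with a weight per group. By edgeR it called 3 higher and 8 lower of 17 without AXL WT hypoxia replicate 1, and 0 and 11 of 16 without replicates 2 and 3 (1 and 11 at an unadjusted p under 0.05). With library size alone the counts for AXL KO against WT were 2 higher and 8 lower in hypoxia and 3 and 3 in normoxia, those for hypoxia 4 and 9 in AXL KO and 5 and 5 in AXL WT, and those for the interaction 2 and 4.

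Of 28 other immediate early genes tested, 12 rose and 7 fell in hypoxia in AXL KO, and 17 rose and 5 fell in AXL WT. Their medians were 0.55 in AXL KO and 1.26 in AXL WT, beside -0.03 and -0.02 for all genes. Ier3, an early stress-response gene, rose to 721 ± 16.6 CPM in AXL KO hypoxia, against 93.5 ± 6.92 CPM in AXL KO normoxia (2.95 ± 0.11, adjusted p = 2.39e-08), and to 1761 ± 235 CPM in AXL WT hypoxia, against 164 ± 11.3 CPM in AXL WT normoxia (3.42 ± 0.12, adjusted p = 5.15e-09). Myc, the growth regulator, fell in AXL KO (7.31 ± 1.47 against 67.5 ± 6.89 CPM, -3.21 ± 0.17, adjusted p = 1.21e-07) and AXL WT (16.1 ± 1.19 against 72.1 ± 9.97 CPM, -2.17 ± 0.16, adjusted p = 7.74e-07). Ier2 fell with it in AXL KO (-2.41 ± 0.19, adjusted p = 1.40e-06). The interaction called 0 genes higher and 13 lower by edgeR (2 and 14 at an unadjusted p under 0.05), and 5 higher and 13 lower by voom with a weight per group. Without AXL WT hypoxia replicates 2 and 3 these were 1 and 18, and without replicate 1 they were 8 and 13. With library size alone 10 rose and 10 fell in hypoxia in AXL KO, and 2 were higher and 12 lower for the interaction.

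The polo-like kinase gene Plk2 went opposite ways with oxygen. It stood at 20.6 ± 1.07 CPM in AXL KO hypoxia and 79.2 ± 5.64 CPM in AXL KO normoxia, but at 84.1 ± 42.1 CPM in AXL WT hypoxia, against 29.0 ± 2.36 CPM in AXL WT normoxia (interaction -3.48 ± 0.37, adjusted p = 6.05e-05, or -3.10 without replicates 2 and 3). Btg2, an antiproliferative gene, did the same (interaction -1.59 ± 0.19, adjusted p = 0.000118), with -1.10 ± 0.13 in AXL KO (adjusted p = 3.19e-05) and 0.49 ± 0.13 in AXL WT (adjusted p = 0.00743). The orphan nuclear receptor gene Nr4a2 rose more in AXL WT (interaction -2.60 ± 0.46, adjusted p = 0.00167). For AXL KO against WT 6 of the 28 were higher and 11 lower in hypoxia, and 10 higher and 3 lower in normoxia (7 and 4 with library size alone). In normoxia the higher ones included Btg2 (1.72 ± 0.14, adjusted p = 5.50e-07) and Zfp36l1, which speeds the decay of AU-rich mRNAs (1.51 ± 0.09, adjusted p = 7.51e-08). Plk3 (-1.84 ± 0.22, adjusted p = 2.03e-05) and Ier3 (-0.81 ± 0.11, adjusted p = 4.15e-05) were lower.

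**Figure D4:**
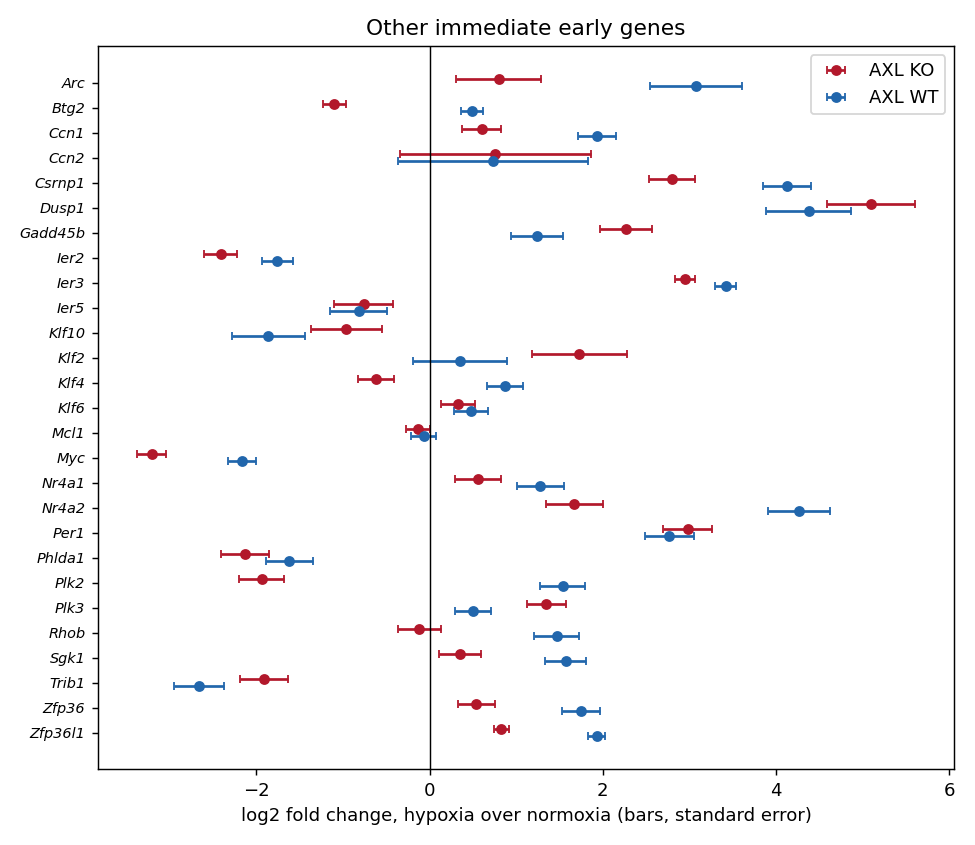
Log2 fold changes of the 27 other immediate early genes that reached 10 CPM in a group of each comparison, for hypoxia over normoxia (horizontal axis) with standard errors, in AXL KO and AXL WT cells. Plk2 and Btg2 lie on opposite sides of 0 in the 2 genotypes, Ier3 lies at 2.95 in AXL KO and 3.42 in AXL WT, and Myc at -3.21 in AXL KO and -2.17 in AXL WT.

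Of 28 AP-1 target genes tested, 5 were higher and 17 lower in AXL KO against WT in hypoxia (median -1.43), and 9 higher and 8 lower in normoxia (median -0.05). For hypoxia 6 were higher and 11 lower in AXL KO (median -0.40, or -0.16 with genes of a group at 0 counts set at their bound), and 17 higher and 6 lower in AXL WT (median 0.80). Ptgs2, which makes prostaglandin precursors, stood at 187 ± 12.6 CPM in AXL KO hypoxia, 18205 ± 8353 CPM in AXL WT hypoxia, 57.2 ± 14.6 CPM in AXL KO normoxia and 167 ± 27.0 CPM in AXL WT normoxia. It rose in hypoxia in AXL KO (1.71 ± 0.30, adjusted p = 0.000454) and AXL WT (6.77 ± 0.37, adjusted p = 1.03e-07, or 5.88 without replicates 2 and 3), with an interaction of -5.06 ± 0.43 (adjusted p = 1.56e-05, or -4.16 without replicates 2 and 3). The chemokine gene Cxcl1 fell in AXL KO (5.14 ± 0.401 against 94.4 ± 18.9 CPM, -4.20 ± 0.28, adjusted p = 4.83e-07) and rose in AXL WT (88.6 ± 37.4 against 43.4 ± 4.84 CPM, 1.03 ± 0.24, adjusted p = 0.00324). The EGF receptor ligands Areg (-2.17 ± 0.19, adjusted p = 3.49e-06) and Hbegf (-1.82 ± 0.21, adjusted p = 1.94e-05) fell in AXL KO. Ccnd1, the cyclin D1 gene, fell to 173 ± 88.3 CPM in AXL WT hypoxia, against 1942 ± 157 CPM in AXL WT normoxia (-3.49 ± 0.30, adjusted p = 2.25e-06, or -2.85 without AXL WT hypoxia replicates 2 and 3).

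The membrane protease gene Mmp14 was an exception to the lower AP-1 targets, with 154 ± 17.6 CPM in AXL KO hypoxia and no count in AXL WT hypoxia. In normoxia it had 197 ± 19.0 CPM in AXL KO and 0.0355 ± 0.0171 CPM in AXL WT. The secreted phosphoprotein gene Spp1 was higher in AXL KO in normoxia as well (20132 ± 259 against 2364 ± 109 CPM, 3.09 ± 0.14, adjusted p = 6.14e-09). For the interaction 2 AP-1 targets were higher and 11 lower, against 7 and 13 of 29 tested without AXL WT hypoxia replicate 1 and 2 and 17 without replicates 2 and 3. Among the lower ones was the matrix protease gene Mmp3 (-5.79 ± 0.66, adjusted p = 9.89e-05, or -4.10 without AXL WT hypoxia replicates 2 and 3).

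Of 18 EGR target genes tested, 9 were higher and 4 lower in AXL KO against WT in normoxia (median 0.32, or 6 and 4 with a median of 0.06 with library size alone), where the EGR genes themselves were high. In hypoxia 7 were higher and 4 lower (median 0.28), but 6 and 6 without AXL WT hypoxia replicates 2 and 3 (median -0.27). The growth factor gene Tgfb1 was higher in AXL KO in normoxia (168 ± 9.01 against 26.4 ± 1.96 CPM, 2.67 ± 0.19, adjusted p = 2.90e-07) and in hypoxia (128 ± 2.48 against 29.3 ± 10.3 CPM, 2.13 ± 0.19, adjusted p = 2.06e-06, or 1.64 without replicates 2 and 3). Its log2 fold change in hypoxia in AXL KO was -0.39 ± 0.18 (adjusted p = 0.0841), beside -4.42 for Egr1. The co-repressor gene Nab2, which EGR proteins induce and which restrains them, fell in hypoxia in AXL KO, with 47.4 ± 3.09 CPM in AXL KO hypoxia and 105 ± 6.39 CPM in AXL KO normoxia (-1.15 ± 0.26, adjusted p = 0.00285). Nab2 was higher in AXL KO in normoxia (105 ± 6.39 against 21.6 ± 2.78 CPM, 2.28 ± 0.27, adjusted p = 1.85e-05) and in hypoxia (47.4 ± 3.09 against 13.9 ± 7.14 CPM, 1.77 ± 0.27, adjusted p = 0.000148, or 1.10 without replicates 2 and 3). Its interaction was -0.51 ± 0.37 (adjusted p = 0.327). It was -1.18 without AXL WT hypoxia replicates 2 and 3, but -0.02 (adjusted p = 0.978) without replicate 1. Its relative Nab1 was lower in AXL KO in normoxia (-0.32 ± 0.08, adjusted p = 0.00541). The list of EGR co-repressors and relatives had 3 genes tested, Nab1, Nab2 and 1 gene under 10 CPM in every group. Of these, 2 were higher and 1 lower in AXL KO against WT in hypoxia, and 1 higher and 1 lower in normoxia. For hypoxia 2 were higher and 1 lower in AXL KO, and 2 higher in AXL WT. The interaction called 0 of them by edgeR and by voom with a weight per group, with 1 at an unadjusted p under 0.05 by each.

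Vegfa, which is also a target of the hypoxia-inducible factors, rose in hypoxia in AXL KO (2326 ± 227 against 357 ± 7.55 CPM, 2.71 ± 0.13, adjusted p = 7.68e-08) and AXL WT (1618 ± 327 against 276 ± 3.31 CPM, 2.55 ± 0.13, adjusted p = 7.53e-08). For hypoxia 6 EGR targets were higher and 6 lower in AXL KO and 5 higher and 3 lower in AXL WT, and for the interaction 1 was higher and 2 lower. With library size alone they were 5 and 8, 5 and 5, and 4 and 2 in the same order. Without AXL WT hypoxia replicate 1, 5 were higher and 7 lower for hypoxia in AXL WT and 6 higher and 2 lower for the interaction. Without replicates 2 and 3 the counts were 9 and 2 for hypoxia in AXL WT, and 4 and 8 for the interaction, whose median was then -0.45.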

How the data were processed

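The authors aligned the reads with STAR 2.5.1b to GRCm38, per the submitters' processing notes, and deposited raw read counts per gene, made with featureCounts 1.6.0 on Ensembl release 93 with reverse-strand, paired-fragment counting, per the file headers (the notes name featureCounts 1.4.6). From these counts edgeR 4.0.16 (R 4.3.3) computed CPM and FPKM with TMM scaling, kept 16767 genes by filterByExpr, and fitted a robust quasi-likelihood model of the 4 groups on all 12 libraries, with Benjamini-Hochberg adjustment over the genes kept. The fit was tested on data simulated with the same spread in every group, so that test does not cover the wider spread of AXL WT hypoxia. Standard errors were derived from each log2 fold change and its F statistic. Named are the 10 genes, Axl, up to 4 genes per pathway list and contrast with the smallest adjusted p at 10 CPM or more in the higher group, some followed into other contrasts, and the 2 genes most like each member. The 10 genes and the 7 pathway lists were chosen with earlier results of these data known. Alternatives were RLE factors, library size alone, no filter, a filter at 5 CPM, DESeq2 1.42.0, limma 3.58.1 voom, a replicate block, only the 6 libraries compared, and left-out libraries (where 1 library of a group remains, it is assumed to vary like the other groups). Figures were drawn with matplotlib 3.10.9. Every column was mapped to a sample. One item of a marker list is not reported here.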

Additional observations from a re-analysis of the deposited data

Results flagged for a closer look

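The hypoxia response of 8 of the 10 genes differed between the genotypes by the interaction test of edgeR, which called 28.8% of all genes tested. The difference, AXL KO response minus AXL WT response on the log2 scale, was -1.60 for Fos, whose responses were 1.33 in AXL KO and 2.92 in AXL WT. It was -1.32 for Fosb (1.48 in AXL KO and 2.80 in AXL WT), -1.75 for Fosl2 (0.85 and 2.60) and -1.23 for Jun (1.63 and 2.86). For these 4 genes both genotypes rose, AXL WT by more. It was 0.89 for Fosl1, which fell by 1.19 in AXL KO and by 2.08 in AXL WT. It was -2.53 for Egr1, which fell by 4.42 in AXL KO and by 1.89 in AXL WT. Egr2 differed by -2.80 and Egr3 by -4.29, with calls in AXL KO (-3.04 and -4.35) and none in AXL WT (-0.25 and -0.06). All 8 differences rest on the AXL WT hypoxia libraries, which stood apart from each other. Without replicates 2 and 3 of that group all 8 kept their sign. They were then smaller in size for Fosb (-0.85), Fosl1 (0.50), Fosl2 (-0.99), Jun and Egr2 (-2.73). The difference was larger for Fos (-1.76) and unchanged for Egr1 and Egr3. That fit leaves 1 library in the group, so it cannot show whether the differences hold against the group's own spread.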

How the results depend on the processing

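Of the 10 genes, 7 were called between AXL KO and WT in hypoxia, but 4 by voom with a weight per group and 3 with only the 6 compared libraries. Calls over all genes fell as well, from 10557 to 8209 and 7696. With 1 library left out, 3 to 7 of the 10 were called (3 without AXL KO hypoxia replicate 2), and 9688 to 12564 of all genes. Leaving out 1 library gave 3582 to 8417 genes called for the interaction, against 4830 with all libraries, the highest without AXL WT hypoxia replicate 1. Of 1084 member results under alternatives, 1003 kept the sign and the side of the threshold, 44 lost the call and 24 gained one. The sign differed in 13, all of values not called with all libraries. Of these 13, 9 stayed uncalled, for Fos, Junb, Jund and Egr3, between -0.24 (Jund in AXL WT) and 0.13 (Egr3 in AXL WT), and 4 were called on the other side. Without AXL WT hypoxia replicates 2 and 3, Junb was at -0.31 between genotypes in hypoxia and -0.44 for the interaction, and Jund at -0.51 for hypoxia in AXL WT. Leaving out 1 library put Junb for hypoxia in AXL WT between -0.53 (without replicate 1 of AXL WT hypoxia) and 0.67 (without replicate 2). The cause was not tested. Same-numbered libraries were not paired (2 of 18 pairs correlated above 0.1, and 5 of 12 libraries correlated best with their own number). With the replicate block 7, 7, 9, 6 and 6 of the 10 genes were called in the 5 contrasts in the order of the report, against 7, 7, 8, 6 and 8, as Fosb (adjusted p = 0.0546) and Fosl1 (adjusted p = 0.0527) lost the interaction call by edgeR. Library size alone moved the median of all genes to -0.208 in hypoxia and -0.285 in normoxia between the genotypes (-0.041 and -0.030 with TMM), and to -0.230 in AXL KO and -0.318 in AXL WT between oxygen levels (-0.026 and -0.023 with TMM). The list counts under other settings were chosen after seeing the data. Of the 16 AP-1 partners, 9 were higher and 3 lower in AXL KO normoxia without AXL WT hypoxia replicates 2 and 3, against 5 and 1. Egr3, at 5 to 14 counts outside AXL KO normoxia, is limited by depth. No fit of the interaction was possible on 6 libraries.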
